A study of Mus musculus with 14 samples.

Results

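The genes described here are 34 genes of MYC and ribosome biogenesis, listed by what their proteins do. They comprise Myc and Mycn, 30 genes for proteins that transcribe, modify, cut or assemble ribosomal RNA in the nucleolus, and the polyamine synthesis genes Srm and Odc1. All 34 are present among the 26528 genes of the brain table and among the 28316 genes of the retina table. They were listed with earlier results of these data known.

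MYC and MYCN are transcription factors that bind DNA together with MAX and raise the transcription of genes needed for growth, and the machinery that makes ribosomes is one of their best known groups of targets. Ribosomes are built in the nucleolus, where RNA polymerase I transcribes a long precursor RNA that is modified by small nucleolar ribonucleoproteins (snoRNPs), cut, and assembled with ribosomal proteins into the small (40S) and the large (60S) subunit. Dividing cells make ribosomes at a high rate, so transcripts of this machinery are usually read together with those of the cell cycle. Most endothelial cells (ECs), the cells that line blood vessels, are quiescent in the mature brain.

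The nuclei came from vascular fragments of mouse brain and from whole retina. In Cdh5CreER;Tgfbr1 CKO/- (CKO) mice, a tamoxifen-activated Cre driven by the EC-specific Cdh5 promoter removed the conditional allele of Tgfbr1, which codes for a TGF-beta receptor, opposite a null allele. Mice received 4-hydroxytamoxifen on postnatal days (P) 3 to 5 and were studied at P14 per the methods of the study, whereas the labels call them young adults. Control mice were phenotypically wild type. The brain series comprises 1 control library and 1 CKO library, each from fragments pooled over 2 brains, and the retina series 1 control library and 11 CKO libraries. Single-nucleus (sn)RNAseq counted transcripts as unique molecular identifiers (UMIs), and levels are given as CPM, the UMIs of a gene divided by all UMIs of the same nuclei and scaled to the usual common total.

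With 1 brain library per genotype there is no replicate and no test. Brain differences are ratios of CPM, CKO over control, and their 95% intervals cover counting error only, since the spread between mice was not measured. The labels give the tissue as brain endothelial cells, but most nuclei carry other cell type labels. The control library holds 2475 nuclei labeled EC of 16649 with 5801552 UMIs in all (median 1347 per nucleus), and the CKO library 2944 of 14675 with 6851854 UMIs (median 1491). The label fits the EC markers (13 genes, among them Cldn5, Pecam1, Flt1 and Cdh5), which sum to 15740 CPM in the control and 12848 CPM in the CKO nuclei, but these nuclei also hold pericyte markers, at 8626 and 7330 CPM in sum. Rgs5, a pericyte marker, is at 5631 and 4831 CPM in them. Nuclei that are rich in vessel RNA of both kinds cannot be told apart from EC nuclei that carry pericyte RNA. Tgfbr1 itself is at 69.1 CPM (401 UMIs) in control and 62.9 CPM (431 UMIs) in CKO ECs, a ratio of 0.91 (0.793 to 1.05), whereas in all other nuclei it is at 32.2 and 15.8 CPM, a ratio of 0.49 (0.436 to 0.549). Counts of a whole gene can come from outside the deleted part, and therefore do not check the labels.

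The promoter sequences show where a MYC site could lie in these genes. MYC and MAX bind the E-box CACGTG, which reads the same on both strands. Of the 34 genes, 26 had an entry among RefSeq promoter windows of build GRCm38.p6, which run from 250 bases before to 50 bases after a gene's start. The E-box is present in 6 of these 26 (23.1%), against 2187 of 27025 genes with a window (8.09%). The sites of all 6 genes are shown here, whatever the response of the gene in ECs. Each is printed 5′ to 3′ on the strand of the gene, with the E-box in capitals and the position of its first base counted from the gene's start.
Wdr43 (position 17, chr17:71616220-71616249, + strand): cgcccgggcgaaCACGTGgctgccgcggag
Utp4 (position 15, chr8:106893643-106893672, + strand): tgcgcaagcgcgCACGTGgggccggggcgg
Utp20 (position 37, chr10:88826765-88826789, - strand): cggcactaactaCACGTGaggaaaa
Pes1 (position 2, chr11:3963965-3963994, + strand): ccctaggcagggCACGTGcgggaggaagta
Nop2 (position -60, chr6:125131811-125131840, + strand): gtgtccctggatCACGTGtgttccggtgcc
Nle1 (position 23, chr11:82908355-82908384, - strand): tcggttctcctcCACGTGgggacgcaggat

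In Nop2 the site lies before the start of the gene, and in the other 5 within the first 50 bases after it. In brain ECs these 6 genes had ratios from 1.21 (Pes1) to 2.65 (Nle1). A match is a description of letters in this window and does not show binding, and its absence in the other 20 windows says nothing about binding of MYC to those genes. Myc, Fbl, Npm1, Tcof1, Rrp12, Bop1, Rrs1 and Srm had no entry.

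The first comparison asks which of the 34 genes differ between CKO and control ECs of the brain. In sum they went from 5534 UMIs (954 CPM) in control to 9969 UMIs (1455 CPM) in CKO ECs, a ratio of 1.53 (1.48 to 1.58). Of the 32 genes with at least 50 UMIs in both libraries together, 20 were at least 1.5-fold higher in CKO ECs and 0 at least 1.5-fold lower. Among all 11351 genes with as many UMIs, 21.4% were at least 1.5-fold higher and 9.32% at least 1.5-fold lower. The interval of the ratio lay above 1 for 26 of the 32 genes and below 1 for 0, against 38.8% and 19.6% of all genes. The median log2 ratio was 0.67 over the 32 genes and 0.14 over all genes, so this group lies above a background that is itself shifted upward. When that shift was removed by TMM scaling, 15 of the 32 were at least 1.5-fold higher, against 16.4% of all genes (13.4% lower), and the summed ratio was 1.38 (1.34 to 1.43).

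**Figure D1:**
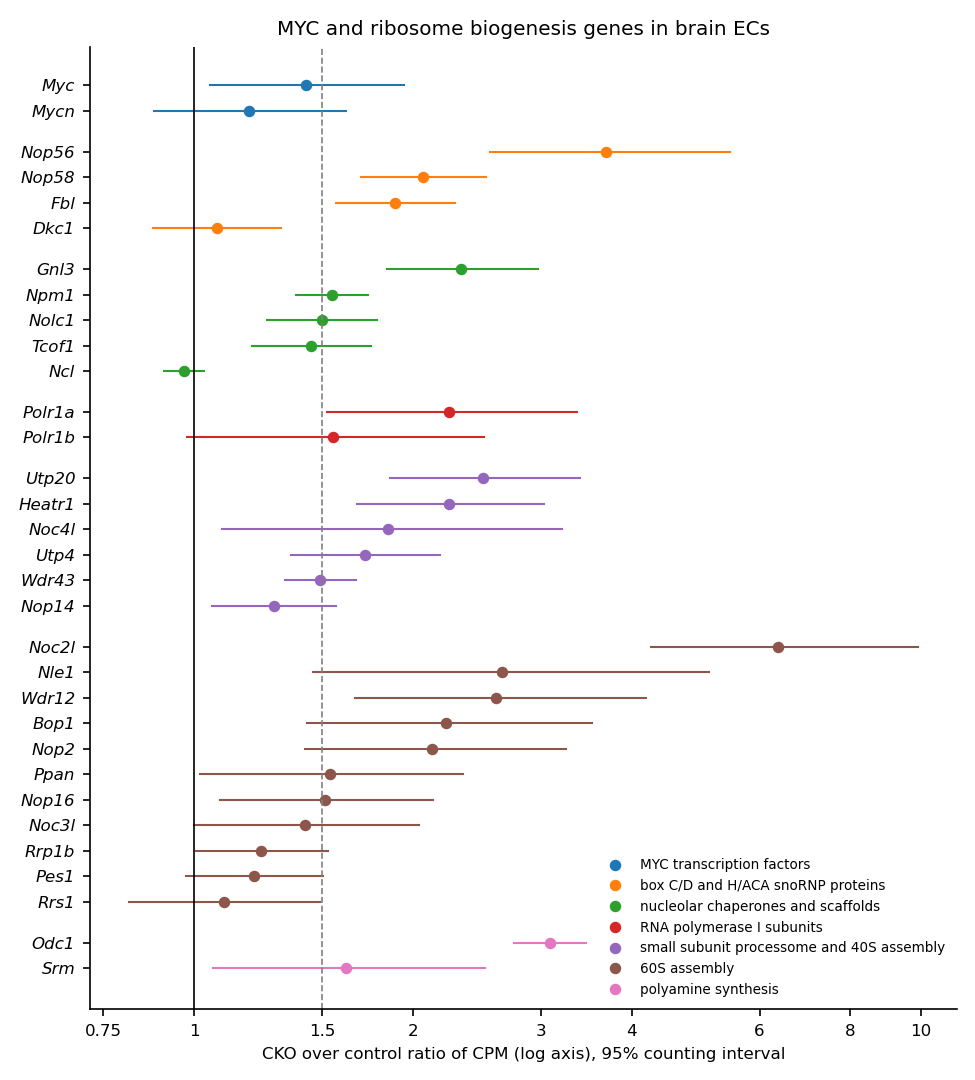
CKO over control ratio of CPM in brain EC nuclei (horizontal log axis) for the 32 genes with at least 50 UMIs, grouped and colored by role. Points are ratios of 1 library to 1 library, bars are 95% counting intervals, the solid line marks 1 and the dashed line 1.5; Noc2l is farthest to the right at 6.37, and Ncl is the only gene to the left of 1.

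The ratios of Myc and Mycn were smaller than those of most genes of the nucleolus. Their intervals overlap those of many of these genes, and the difference between ratios was not tested. Myc had 70 UMIs (12.1 CPM) in control and 118 UMIs (17.2 CPM) in CKO ECs, a ratio of 1.43 (1.05 to 1.95). Mycn had 76 UMIs (13.1 CPM) and 107 UMIs (15.6 CPM), a ratio of 1.19 with an interval that includes 1 (0.88 to 1.62). Both genes are more abundant in ECs than elsewhere in these libraries, since the level in control ECs was 9.65 times that in the pooled nuclei of all other control cell types for Myc and 13.7 times for Mycn. Max, the common partner, was lower in CKO ECs (102 against 140 CPM, ratio 0.727, 0.656 to 0.805).

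The proteins of box C/D snoRNPs, which guide the methylation of ribosomal RNA, were higher together. Nop56, a core subunit, had 36 UMIs (6.21 CPM) in control and 157 UMIs (22.9 CPM) in CKO ECs, a ratio of 3.69 (2.56 to 5.46). Its partner Nop58 went from 25.2 to 52.0 CPM, a ratio of 2.06 (1.70 to 2.52). Fbl, the methyltransferase of the same particle, went from 28.3 to 53.4 CPM, a ratio of 1.89 (1.57 to 2.29). Dkc1 differs from these 3: the pseudouridine synthase of the H/ACA particle was at 30.7 and 33.0 CPM, with an interval that includes 1 (ratio 1.08, 0.879 to 1.32).

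Among the nucleolar chaperones and scaffolds the response ranged from none to more than 2-fold. Gnl3 (nucleostemin), a nucleolar GTPase abundant in proliferating cells, went from 97 UMIs (16.7 CPM) to 267 UMIs (39.0 CPM), a ratio of 2.33 (1.84 to 2.97). Npm1, the abundant nucleolar chaperone nucleophosmin, went from 83.1 to 129 CPM (ratio 1.55, 1.38 to 1.73). Nolc1 and Tcof1, which link RNA polymerase I and snoRNPs in the nucleolus, had ratios of 1.499 (1.26 to 1.79) and 1.45, just under 1.5-fold. Ncl, which codes for nucleolin, had the most UMIs of the 34 and did not follow the others. It had 1826 UMIs (315 CPM) in control and 2091 UMIs (305 CPM) in CKO ECs, a ratio of 0.97 (0.91 to 1.03). With nuclei weighted equally the ratio of Ncl was 1.09. In nuclei with at most 1 pericyte marker UMI it was 2.72, from 32 and 48 UMIs. Because Ncl supplies such a large share of the sum, the summed ratio without it is 1.80 (1.73 to 1.87).

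Polr1a codes for the largest subunit of RNA polymerase I, and went from 37 UMIs (6.38 CPM) to 98 UMIs (14.3 CPM), a ratio of 2.24 (1.52 to 3.37). The second largest subunit, Polr1b, had only 30 and 55 UMIs, and its ratio of 1.55 has an interval that includes 1 (0.978 to 2.51).

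The small subunit processome is the large particle that folds and cuts the precursor of the 40S subunit. Of its 6 genes with 50 or more UMIs, 4 were at least 1.5-fold higher in CKO ECs and 0 lower. Over all genes these shares were 21.4% and 9.32%. All 6 had a ratio above 1, as did 7047 of all 11351 genes. Utp20 went from 10.5 to 26.3 CPM (ratio 2.50, 1.86 to 3.40), and Heatr1, which is also needed for transcription by RNA polymerase I, from 11.2 to 25.1 CPM (ratio 2.24, 1.68 to 3.03). Utp4, whose E-box is shown above, went from 18.8 to 32.3 CPM (ratio 1.72, 1.36 to 2.18). The ratios of Noc4l, Wdr43 and Nop14 were 1.85 (1.09 to 3.21), 1.49 (1.33 to 1.67) and 1.29 (1.06 to 1.57). Rrp9 and Rrp12 were too rare for the 50-UMI limit. Rrp9 had 3 UMIs in control ECs against 35 in CKO ECs, and its ratio of 9.88 has a wide interval (3.11 to 50.2), and Rrp12 had 1 and 27 UMIs, a ratio of 22.9 (3.77 to 936).

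Among the 11 genes of 60S assembly, Noc2l (chromosome 4, 156320376 to 156332073 of GRCm39) had the largest ratio of the 32 genes with at least 50 UMIs: 27 UMIs (4.65 CPM) in control and 203 UMIs (29.6 CPM) in CKO ECs, a ratio of 6.37 (4.25 to 9.90). Nle1 (ratio 2.65, 1.46 to 5.11), Wdr12 (2.60, 1.67 to 4.18), Bop1 (2.22, 1.43 to 3.53) and Nop2 (2.13, 1.42 to 3.25) were also more than 2-fold higher. Wdr12, Bop1 and Pes1 form a single complex that is required for the maturation of the large subunit, and their ratios differ: Pes1 went from 25.3 to only 30.6 CPM, and its interval includes 1 (ratio 1.21, 0.975 to 1.504). The whole-gene counts of Noc2l, Gnl3 and Nop56 share their loci with genes on the other strand, as do 16 of the 34 genes, and the sources do not give the strand setting of the counting. Samd11, opposite Noc2l, had 1 and 2 UMIs, whereas Glt8d1, opposite Gnl3, itself had 37 and 114 UMIs (ratio 2.61) and Pbrm1, also opposite Gnl3, 1840 and 3056 UMIs (ratio 1.41). Idh3b, opposite Nop56, had 140 and 267 UMIs (ratio 1.61). Ppan and Nop16 were at 1.54 (1.02 to 2.35) and 1.52 (1.09 to 2.13), Noc3l at 1.42 (1.00 to 2.04), Rrp1b at 1.24 (1.01 to 1.53) and Rrs1 at 1.10 (0.815 to 1.49).

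Odc1, ornithine decarboxylase, the rate-limiting enzyme of polyamine synthesis and a classic MYC target, had the largest difference in UMIs. It went from 384 UMIs (66.2 CPM) in control to 1401 UMIs (204 CPM) in CKO ECs, a ratio of 3.09 (2.76 to 3.47), and was detected in 10.2% of control and 24.7% of CKO EC nuclei. Srm, spermidine synthase, had 35 and 67 UMIs and a ratio of 1.62 (1.06 to 2.51). Without Odc1 the summed ratio of the other 33 genes is 1.41 (1.36 to 1.46).

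Several of these genes start from a low level in control ECs. Nop56 is at 6.21 CPM in control ECs but at 46.0 CPM in the pooled nuclei of all other control cell types, and in the CKO library at 22.9 CPM in ECs and 53.4 CPM elsewhere. Wdr12 is at 4.65 CPM in control ECs and 29.3 CPM in other control nuclei, Polr1a at 6.38 and 33.2 CPM, and Noc2l at 4.65 and 21.0 CPM. Others are higher in control ECs than in the other control nuclei, among them Ncl (315 against 35.6 CPM), Npm1 (83.1 against 10.9 CPM), Odc1 (66.2 against 9.96 CPM) and Dkc1 (30.7 against 7.00 CPM). In CKO ECs Noc2l is at 29.6 CPM and other CKO nuclei are at 33.3 CPM. These ratios share the control EC counts with the CKO over control ratios above and are no second measurement of the same difference.

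The second comparison asks whether the higher level in CKO ECs is found only in cycling nuclei, taken as nuclei with any UMI of Mki67 or Top2a, which code for a chromosome surface protein and a DNA topoisomerase of proliferating cells. Both genes were themselves more abundant in CKO ECs, Mki67 at 80.1 against 35.0 CPM (ratio 2.29, 1.95 to 2.70) and Top2a at 243 against 115 CPM (ratio 2.12, 1.94 to 2.32). Cycling nuclei make up 245 of 2475 control ECs (9.90%, exact 95% interval 8.75 to 11.1%) and 783 of 2944 CKO ECs (26.6%, 25.0 to 28.2%). After each nucleus was thinned to 1000 UMIs, with shallower nuclei left out (1005 control and 1055 CKO), the shares are 6.80% and 19.3%. In Glut_0, the largest cluster of neurons, which do not divide, 0.189% of control and 0.0645% of CKO nuclei have such a UMI at median depths of 5004 and 2314 UMIs. The highest share in a neuron cluster is 2.94% (Glut_20 of the CKO library), below those of both EC groups.

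The higher level was measured in both classes of nuclei. In non-cycling ECs (2230 control and 2161 CKO) the 34 genes sum to 891 CPM in control (4268 UMIs) and 1261 CPM in CKO (5209 UMIs), a ratio of 1.42 (1.36 to 1.47). In cycling ECs the sums are 1254 and 1749 CPM (1266 and 4760 UMIs), a ratio of 1.40 (1.31 to 1.49). The ratio in cycling nuclei divided by that in non-cycling nuclei is 0.985, with an interval (0.915 to 1.06) that includes 1. Under 2 of the other definitions of cycling this interval lies below 1, at 0.884 (0.813 to 0.96) where cycling meant 2 UMIs of Mki67 or Top2a and at 0.776 (0.633 to 0.951) where it meant any UMI of the S and G2/M gene lists. Within a genotype, cycling nuclei hold more of these transcripts than non-cycling nuclei by a similar factor, 1.41 (1.32 to 1.499) in control and 1.39 (1.33 to 1.44) in CKO ECs. With any Mki67 or Top2a UMI as the definition, non-cycling CKO nuclei thus reach the level of cycling control nuclei (1261 and 1254 CPM). With 3 UMIs of the S and G2/M gene lists the 2 values are 1050 and 1022 CPM. They are 1333 and 1366 CPM with 2 UMIs of Mki67 or Top2a, and 855 and 991 CPM with any UMI of the gene lists. Fibroblast markers were lower in cycling CKO than in cycling control ECs (404 against 971 CPM), as were immune cell markers (149 against 324 CPM), and the part of these cells in the ratio of cycling nuclei was not tested.

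Of the difference of 501 CPM between all CKO and all control ECs, 61.1% corresponds to the higher level in non-cycling nuclei. Another 17.2% corresponds to the higher level in cycling nuclei. The other 21.7% corresponds to the larger part of all UMIs that comes from cycling nuclei (17.4% in control and 39.7% in CKO). Both level differences were weighted by the control shares of UMIs. With the CKO shares as weights these percentages would differ, and that split was not made. Per nucleus thinned to 1000 UMIs, at least 1 UMI of the 34 genes was present in 59.1% (56.4 to 61.8%) of non-cycling control nuclei and 66.3% (63.6 to 68.9%) of non-cycling CKO nuclei, and 3 or more in 7.28% (5.92 to 8.85%) and 15.1% (13.1 to 17.1%). In cycling nuclei 15.5% of control and 26.8% of CKO nuclei had 3 or more.

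**Figure D2:**
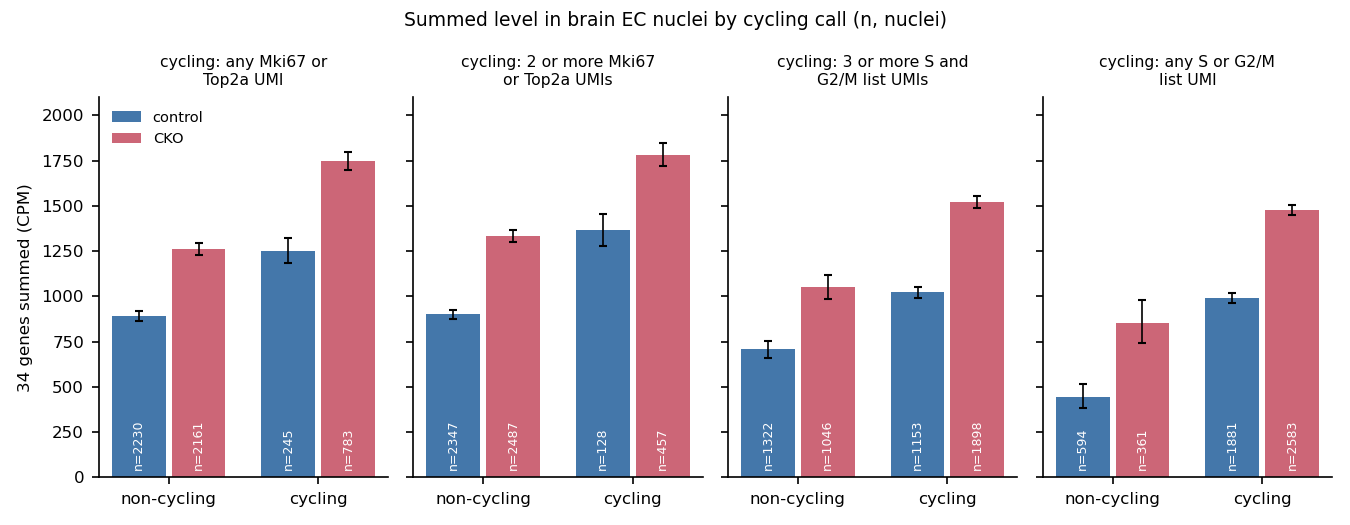
Summed CPM of the 34 genes (vertical axis) in non-cycling and cycling brain EC nuclei of the control (blue) and CKO (red) library, under 4 definitions of cycling, with the number of nuclei in each bar and exact Poisson 95% intervals. In each panel the CKO bar is above the control bar in both classes of nuclei.

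A nucleus without Mki67 or Top2a UMIs can still be in the cycle, because few UMIs are read per nucleus. The ratio in non-cycling nuclei was above 1 under each definition tried, but the part of the difference that these nuclei hold was not stable. Where any UMI of the S and G2/M gene lists marked a nucleus as cycling, only 594 control and 361 CKO nuclei were left as non-cycling, and they sum to 445 and 855 CPM, a ratio of 1.92 (1.56 to 2.36). These are shallow nuclei, with medians of 544 and 561 UMIs, and their level corresponds to only 5.52% of the difference of 501 CPM. Where 3 UMIs of these lists were needed, the ratios are 1.48 (1.36 to 1.63) in non-cycling and 1.49 (1.44 to 1.54) in cycling nuclei, and the share that corresponds to non-cycling nuclei is 14.9%. S phase genes, such as those of the replication helicase, are still higher in CKO nuclei that have no Mki67 or Top2a UMI (530 against 833 CPM over the list, ratio 1.57), as are G2/M genes (1065 against 1436 CPM, ratio 1.35). How much of the difference in these nuclei belongs to cells in the cycle cannot be told apart at this depth.

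By gene, 15 of the 29 with at least 50 UMIs in non-cycling ECs were at least 1.5-fold higher in CKO and 0 at least 1.5-fold lower, against 19.7% and 8.94% of 10299 genes. In cycling ECs 11 of 25 were at least 1.5-fold higher and 0 lower, against 12.8% and 9.58% of 8819 genes. In non-cycling ECs Odc1 went from 56.6 to 148 CPM (ratio 2.62, 2.27 to 3.04), in cycling ECs from 112 to 290 CPM (ratio 2.59, 2.12 to 3.18). Noc2l had ratios of 6.41 (3.80 to 11.5) and 4.04 (2.12 to 8.67), and Fbl of 1.82 (1.46 to 2.28) and 1.84 (1.255 to 2.79). For these 3 genes the intervals of both classes overlap widely.

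For other genes the ratio is larger in one class or the other, with intervals that overlap. Nop56 went from 3.13 to 12.8 CPM in non-cycling ECs (ratio 4.10, 2.28 to 7.83) and from 20.8 to 38.2 CPM in cycling ECs (ratio 1.84, 1.14 to 3.09). Heatr1 had ratios of 2.63 (1.83 to 3.82) and 1.30 (0.781 to 2.25), and Gnl3 of 2.30 (1.65 to 3.24) and 1.40 (0.988 to 2.01). Myc went from 9.60 to 14.8 CPM in non-cycling ECs (ratio 1.54, 1.03 to 2.31) and was at 23.8 and 20.9 CPM in cycling ECs (ratio 0.881, 0.538 to 1.48). Mycn was at 13.6 and 13.1 CPM in non-cycling and 10.9 and 19.5 CPM in cycling ECs (ratios 0.964 and 1.79), with both intervals including 1. Noc3l had ratios of 1.03 (0.656 to 1.61) in non-cycling and 2.27 (1.07 to 5.56) in cycling ECs, Tcof1 of 1.26 and 1.64, Pes1 of 1.17 and 1.65, and Polr1a of 1.82 and 2.23. The difference between the classes was not tested gene by gene.

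Other genes of the same pathways were counted in the same way, with lists that, like the 34 genes, were chosen with earlier results of these data known. Their counts are to be read against the 21.4% of all genes at least 1.5-fold higher and the 9.32% lower in CKO ECs, and against the median log2 ratio of 0.14. Of 41 other genes of the small subunit processome with at least 50 UMIs, 14 were at least 1.5-fold higher in CKO ECs and 0 lower (median log2 ratio 0.35), led by Tbl3 (ratio 2.16, 1.39 to 3.44), Tsr1 (1.99) and Nat10 (1.95). Of 48 other 60S assembly genes, 19 were higher and 0 lower (median 0.41), led by Urb1 with 10 and 87 UMIs (ratio 7.37, 3.82 to 15.9), Las1l (3.98) and Ddx55 (3.52). Of 17 other genes of RNA polymerase I transcription, 4 were higher and 1 lower (median 0.18), close to the shares over all genes. Taf1d went from 42.6 to 123 CPM (ratio 2.90, 2.51 to 3.36), Polr1c was at 2.04 and Polr1h, the lower one, at 0.639 (0.544 to 0.75). Other snoRNP assembly genes counted 4 higher and 1 lower of 14 (median 0.35), with Ruvbl1 and Shq1 both at 1.84 and Znhit3 at 0.56.

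Cytosolic ribosomal protein genes, the products that these factors assemble, did not follow. None of 81 was 1.5-fold higher or lower, and their sum was 22950 CPM in control and 23703 CPM in CKO ECs (median log2 ratio 0.05, below the 0.14 of all genes). Rps2 (ratio 1.46), Rpsa (1.41) and Rpl12 (1.29) were highest. Of 37 metabolic and growth genes known as MYC targets, 10 were higher and 5 lower (median 0.28), against 21.4% and 9.32% of all genes. Their sum points the other way, with a ratio of 0.757 (0.747 to 0.767). Among them Atic and Ppat, of purine synthesis, had ratios of 3.36 (2.18 to 5.33) and 2.45 (1.68 to 3.64), whereas Tfrc, the transferrin receptor that brain ECs express strongly, went from 8352 UMIs (1440 CPM) to 3286 UMIs (480 CPM), a ratio of 0.333 (0.32 to 0.347).

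Of 11 MYC network partners, 3 were higher and 1 lower (median log2 ratio -0.08), against the same 21.4% and 9.32% of all genes, which hold for the other lists of this paragraph as well. Mlxip had 5 and 50 UMIs (ratio 8.47, 3.40 to 27.2), Mxd3, an antagonist of MYC found in cycling cells, had a ratio of 2.18 (1.29 to 3.80), and Mycl, another MYC family member, was lower at 0.342 (0.226 to 0.51). Around Odc1, other polyamine genes went in both directions, with 1 of 11 higher and 2 lower (median -0.12, ratio of the sums 0.817, 0.791 to 0.843). Sms, spermine synthase, went from 7.93 to 21.7 CPM (ratio 2.74, 1.959 to 3.91), and the catabolic enzymes Sat1 and Smox had ratios of 0.455 (0.41 to 0.505) and 0.479 (0.426 to 0.538). The cell cycle lists had larger medians than these lists of other pathway genes: 29 of 37 S phase genes and 38 of 49 G2/M genes were at least 1.5-fold higher, with medians of 1.01 and 0.92.

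The size of the difference depends on the depth of the nuclei. In EC nuclei with at least 2500 UMIs the 34 genes sum to 1019 CPM in control and 1459 CPM in CKO (ratio 1.43, 1.38 to 1.49), and in nuclei with 1000 to under 2500 UMIs to 934 and 1460 CPM (ratio 1.56, 1.45 to 1.68). In control nuclei with 500 to under 1000 UMIs the level drops to 625 CPM, and under 500 UMIs to 311 CPM (51 UMIs), while CKO nuclei stay at 1463 and 1229 CPM. The ratios are then 2.34 (2.03 to 2.71) and 3.95 (2.88 to 5.51). Ribosomal protein genes move the same way with depth in control nuclei, from 23345 CPM in the deepest to 13040 CPM in the shallowest nuclei. In CKO nuclei they are at 23055 and 16268 CPM. Non-cycling nuclei alone have ratios of 1.31 (1.246 to 1.38) at 2500 UMIs or more and 3.18 (2.26 to 4.53) under 500.

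**Figure D3:**
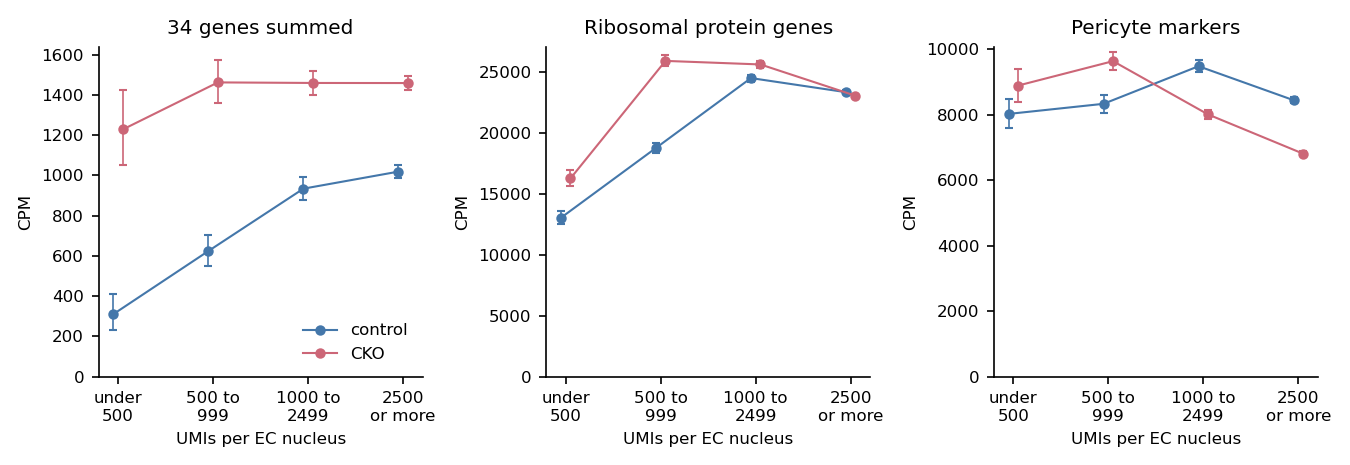
Summed CPM of the 34 genes, of cytosolic ribosomal protein genes and of pericyte markers (vertical axes) in brain EC nuclei binned by UMIs per nucleus (horizontal axis), for the control (blue) and CKO (red) library with exact Poisson 95% intervals. The 34 genes climb with depth in control nuclei from 311 to 1019 CPM and are between 1229 and 1463 CPM in CKO nuclei.

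Pericyte markers were at 8023 CPM in the shallowest and 8442 CPM in the deepest control nuclei, and thus did not follow the 34 genes over depth in control. In CKO nuclei they were at 8888, 9634, 8007 and 6810 CPM from the shallowest to the deepest bin. They were thus above control in nuclei under 1000 UMIs and below it in deeper ones. Among EC nuclei with at most 1 UMI of the pericyte markers (447 control and 238 CKO), the 34 genes are at 220 CPM in control, from 62 UMIs, and at 1552 CPM in CKO nuclei, a ratio of 7.07 (5.33 to 9.50). EC markers are at 24426 CPM in these control and 14832 CPM in these CKO nuclei, as they are highest in shallow nuclei in general (31456 CPM in control nuclei under 500 UMIs), so that low pericyte RNA and low depth cannot be told apart here. Ribosomal protein genes in these nuclei are at 4466 CPM in control and 15101 CPM in CKO. The part that depth and RNA of other cells have in the ratios was not tested.

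ECs were then set beside the other cell types of the brain libraries. Most neuron clusters, which carry the authors' names for glutamatergic (Glut) and GABAergic (GABA) neurons, had ratios near 1. The summed ratio was 1.01 (0.966 to 1.05) in Glut_0 and 0.984 (0.899 to 1.08) in GABA_9. In Glut_1 it was lower, at 0.842, with an interval below 1 (0.802 to 0.885). In astrocytes it was 0.965 (0.741 to 1.247). Nuclei labeled vSMCs (vascular smooth muscle cells) had the same ratio as ECs, with 843 CPM (1304 UMIs) in control and 1289 CPM (333 UMIs) in CKO, 1.53 (1.35 to 1.73). These 449 control and 103 CKO nuclei hold EC markers at 6566 and 6468 CPM and smooth muscle markers at 4598 and 4146 CPM. Fibroblast markers differ more between the libraries, at 1594 and 3108 CPM, as do neuron markers, at 999.6 and 603.8 CPM. The part of this makeup in the ratio was not tested. A Mki67 or Top2a UMI is present in 18.9% of the control and 18.4% of the CKO nuclei labeled vSMCs. In these nuclei Nolc1 was at 27.2 and 77.4 CPM (ratio 2.85, 1.59 to 4.97), and Wdr12 had 16 and 12 UMIs (ratio 4.49, 1.94 to 10.1).

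Nuclei labeled glia had a ratio of 1.32 (1.18 to 1.48). They hold fibroblast markers at 4680 CPM in control and 4273 CPM in CKO nuclei, against 642 and 442 CPM in ECs, which goes against that label. Oligodendrocytes were lower in CKO, at 367 CPM (570 UMIs) and 174 CPM (127 UMIs), a ratio of 0.474 (0.388 to 0.576). Their nuclei were also shallower in CKO, with medians of 2328 UMIs in control and 954.5 UMIs in CKO. There Wdr12 had 67 UMIs in control and 2 in CKO nuclei, and Wdr43 went from 58.7 to 28.8 CPM. Pericytes and microglia had too few UMIs of these genes to compare, with 13 and 1 and with 6 and 6. Glut_5 had a ratio of 3.52 (2.05 to 5.85) from only 57 and 22 UMIs.

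**Figure D4:**
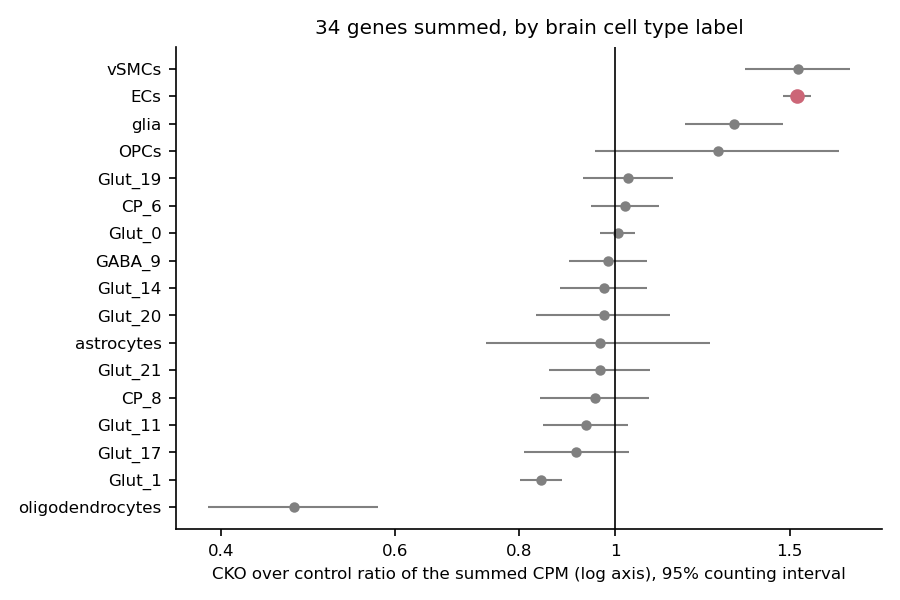
CKO over control ratio of the summed CPM of the 34 genes (horizontal log axis) in each brain cell type label with at least 50 UMIs of these genes in each library, with 95% counting intervals. ECs (red) and vSMCs are highest at 1.53, oligodendrocytes lowest at 0.474, and most neuron clusters are near 1.

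Over all nuclei other than ECs together, 3 of the 34 genes were at least 1.5-fold higher in CKO and 8 at least 1.5-fold lower, against 2% and 24.1% of 17467 genes. The 8 lower ones are Ncl (35.6 and 19.0 CPM, ratio 0.534, 0.48 to 0.593), Npm1 (0.504), Fbl (0.481), Pes1 (0.495), Rrs1 (0.481), Dkc1 (0.62), Srm (0.612) and Odc1 (0.623), all of which are more abundant in control ECs than in the other control nuclei. EC markers were lower in the same CKO nuclei, Cldn5 from 46.1 to 14.2 CPM and Flt1 from 78.9 to 26.3 CPM. Noc2l (21.0 and 33.3 CPM, ratio 1.59, 1.45 to 1.75) and Rrp12 (5.25 and 10.1 CPM, ratio 1.92, 1.60 to 2.31) were higher in this pool of CKO nuclei, as was Noc4l (ratio 1.53, 1.14 to 2.06). The makeup of the pool differed between the libraries, with 1858 control and 251 CKO nuclei of Glut_5, 1227 and 419 of glia and 2112 and 3102 of Glut_0, so that these ratios need not hold within a type. Within Glut_0 the ratio was 1.54 (1.31 to 1.81) for Noc2l, 1.47 (1.08 to 1.99) for Rrp12 and 1.03 (0.611 to 1.73) for Noc4l. The part of EC RNA in the other nuclei in these values was not tested.

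In the retina the 34 genes were compared across 12 libraries, which hold from 104 to 18862 nuclei and from 90449 to 55803724 UMIs each. The 11 cell type labels do not include ECs, so the retina gives the level of these genes in neurons, glia and immune cells around the mutant vessels. UMIs were summed per library and type, and sums of at least 20 nuclei were used. CKO replicate 4, with the 104 nuclei, enters only for immune and ganglion cells.

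No gene of the 34 that had enough counts for the test between CKO and control retinas passed it in any of 10 cell types. After the filter on low counts 32 of the 34 were tested in some type, but only 8 in immune cells and 25 in horizontal cells. Without that filter 0 of 340 tests passed. In edgeR's quasi-likelihood test with Benjamini-Hochberg adjustment over all genes of a type, 0 of 272 tests of these genes passed 0.05. Of all 121773 tests, 4 (0.00328%) passed. An unadjusted p under 0.05 was found in 6 of the 272 (2.21%). Over all genes such a p was found in 159 of 13210 in ganglion cells and in 784 of 12992 in Müller glia. The 6 thus do not set these genes apart. DESeq2 also called 0 of the 272, with 3 (1.10%) at an unadjusted p under 0.05, but called 1101 of the 121773 tests over all genes. Within batch 1 of the deposited nucleus annotation, which holds the control and CKO replicates 1 to 3, 0 of 254 passed, and batches 2 and 3 hold CKO libraries only. With 1 control library, its spread was taken to be that of the CKO libraries. The number of mice per retina library was not found, so the p-values measure the spread between these libraries. The median standard error of a log2 difference was 0.41, so that changes of the size seen for most genes in brain ECs would have been hard to detect here. The log2 differences of the 6 genes with the smallest p were 0.50 ± 0.20 (SE) for Rrp1b in cones, 1.56 ± 0.65 for Heatr1 in horizontal cells, -0.49 ± 0.22 for Nop58 in Müller glia, -1.42 ± 0.53 for Rrp9 in rod bipolar cells, 1.01 ± 0.40 for Ppan in ganglion cells and -1.66 ± 0.56 for Nop16 in rods, with adjusted p from 0.813 to 1.

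In sum, the control library lay within the range of the CKO libraries in each of these 10 types. Rods were at 904 CPM in control, and at 738, 842 and 950 CPM in the lowest, median and highest of 10 CKO libraries. Müller glia (MG), which span the retina and contact its vessels, were at 696 CPM in control and at 538, 639 and 751 CPM in CKO. Immune cells, which held only 29 nuclei in the control library, were at 891 CPM in control and at 833, 968 and 1232 CPM in CKO, the highest being replicate 4. The paper reports microglia in both genotypes but all other immune cell types from CKO retinas only. The immune cells of control and CKO thus differ in makeup. Ganglion cells (RGC) were at 730 CPM, and at 689, 815 and 853 CPM in 11 CKO libraries.

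**Figure D5:**
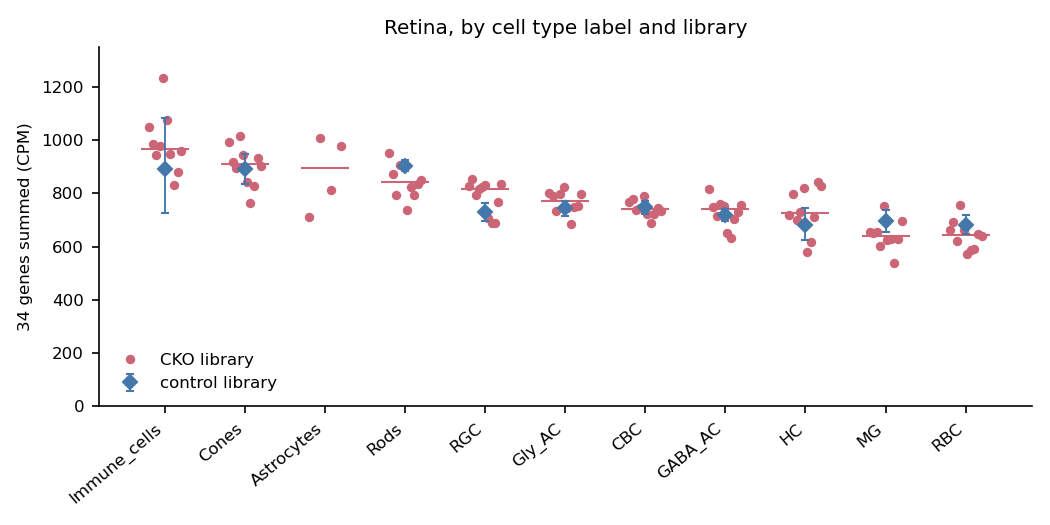
Summed CPM of the 34 genes (vertical axis) in each retina cell type label, for CKO libraries (red points, with their median as a line) and the control library (blue diamond, exact Poisson 95% interval), over sums of at least 20 nuclei. RBC and CBC are rod and cone bipolar cells, GABA_AC and Gly_AC amacrine cells, HC horizontal cells; the control lies within the CKO range in all 10 types where it has 20 nuclei.

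Across cell types the levels are in a narrow range, with medians over libraries from 645 CPM in rod bipolar cells (RBC) to 959 CPM in immune cells. Cones (904 CPM), astrocytes (895 CPM, CKO libraries only) and rods (850 CPM) follow immune cells, and MG (650 CPM) are next to RBC at the low end. The ranges of neighbors in this order overlap. Immune cells from CKO retinas held 75 cycling nuclei of 691 (10.9%, 8.63 to 13.4%), against 0 of 29 in the control, which allows up to 11.9%. In CKO immune cells the 34 genes were at 1193 CPM in cycling and 972 CPM in non-cycling nuclei, a ratio of 1.23 (1.09 to 1.38). This interval pools the UMIs of the CKO libraries and covers counting error only, not the spread between libraries.

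Each retinal type was tested against the mean of the others with library as a block, with 33 of the 34 genes passing the filter on low counts. The counts below are out of these 33. With edgeR and all libraries, those of rods, ganglion cells, GABAergic amacrine cells, rod bipolar cells and immune cells were close to or below the shares over all genes. Such counts do not set the group of genes apart in a type. The lower genes of Müller glia were more than that share. Rods had 8 genes higher and 12 lower (edgeR, adjusted p under 0.05), against 32.8% and 39.1% of 15848 genes. Rrp1b, a nucleolar protein of 60S assembly, was at a median of 214 CPM in rods and 180 CPM in cones but 65.2 CPM in ganglion cells. Its log2 difference from the other types was 1.74 ± 0.07 (SE) in rods and 1.06 ± 0.08 in cones. In rods Pes1 (0.99 ± 0.11), Nop58 (0.61 ± 0.06) and Ncl (0.46 ± 0.05) were also higher, whereas Srm (-1.86 ± 0.41), Npm1 (-1.29 ± 0.14) and Nop56 (-0.68 ± 0.10) were lower.

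Ganglion cells had 9 of 33 genes higher and 2 lower, against 31.5% and 18.9% of all genes. GABAergic amacrine cells had 11 of 33 higher and 3 lower, against 33.6% and 21%. Neither type had more of these genes higher or lower than the shares over all genes. The latter count fell to 6 higher and 3 lower without the control library (30.2% and 22.7% of all genes), and to 4 higher and 6 lower with scaling to total UMIs (26.1% and 31.6%). In ganglion and GABAergic amacrine cells alike, Mycn (1.37 ± 0.29 and 1.16 ± 0.26), Nop56 (0.78 ± 0.10 and 0.74 ± 0.09) and Noc2l (0.60 ± 0.12 and 0.52 ± 0.11) were among the higher genes, and Ncl and Rrp1b among the lower ones. Müller glia had 0 genes higher and 11 lower, against 25.4% and 16.4%, among them Nop56 (-0.64 ± 0.12), Gnl3 (-0.51 ± 0.08) and Heatr1 (-0.40 ± 0.11). Rod bipolar cells had 0 higher and 7 lower, against 24.8% and 21.5%, among them Odc1 (-0.81 ± 0.20) and, from only 7 and 3 UMIs over 11 libraries, Srm (-1.73 ± 0.57) and Myc (-1.63 ± 0.65).

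In immune cells 6 of 33 genes were higher and 2 lower, which is no more than the 20.8% and 15.2% of all genes. Myc was higher by 2.85 ± 0.51 on the log2 scale, from only 15 UMIs in 11 libraries, and Tcof1 (0.68 ± 0.18) and Heatr1 (0.64 ± 0.14) were higher as well. Without CKO replicates 4 and 5, which the authors had curated further, 3 genes were higher in immune cells and 2 lower, against 16.0% and 15.0% of all genes. With scaling to total UMIs 14 were higher and 0 lower, against 35.2% and 4.86%. The counts for immune cells thus depend on the scaling and the libraries. Levels in the retina and in brain ECs come from separate tables and were not tested against each other.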

How the data were processed

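The deposited files hold counts, whole numbers of UMIs per gene and nucleus. Per the methods of the study, the authors made these counts with PIPseeker on GRCm39, removed ambient RNA with CellBender and doublets with SOLO, and curated nuclei by hand, and their labels give each nucleus its cell type. The submitters' processing notes name mm10 and Seurat instead. No nucleus was removed and no doublet caller run here. Removal of ambient RNA acts on each library separately and can move low counts such as those of Rrp9 and Rrp12.

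Counts were summed per library and cell type label and divided by all UMIs of the sum. Brain ratios have exact conditional binomial 95% intervals, shares exact Clopper-Pearson ones, and both cover counting error only. Genes with at least 50 UMIs in both groups together were counted as higher or lower at 1.5-fold. Retina sums of at least 20 nuclei were tested with edgeR (4.0.16, R 4.3.3; TMM, quasi-likelihood, low-count filter, kit version as covariate; Benjamini-Hochberg over all genes of a type, threshold 0.05) and, as an alternative, DESeq2 (1.42.0). The study's own test over single nuclei was not used, because nuclei are not replicates. Retina libraries share 10 cell barcodes and brain libraries 2. Sums used Python 3.11.15, numpy 2.4.6, scipy 1.17.1 and pandas 2.3.3, and the scripts were tested on simulated data.

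The 34 genes and the lists were chosen with earlier results of these data known. All 34 were described in brain ECs, and of each other list the 3 genes with the largest change among those with enough UMIs and an interval that excludes 1; Max, Glt8d1, Samd11, Pbrm1 and Idh3b were added after their values were seen. Alternatives covered the scaling, the filters on nuclei and genes, the definition of cycling and the libraries used. Leaving out a brain library was not possible with 1 per genotype.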

Additional observations from a re-analysis of the deposited data

Results flagged for a closer look

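The summed ratio of the 34 genes, CKO over control, lies below 1 in Glut_1 neurons (0.842) and in oligodendrocytes (0.474), opposite to the ratio of 1.53 in ECs. The difference between these cell types and ECs was not tested, since each value compares 1 library with 1 library. CKO nuclei were shallower in both types, with medians of 1653 against 3603 UMIs in Glut_1 and 954.5 against 2328 UMIs in oligodendrocytes. The part of depth in these ratios was not tested. In the 10 retinal groups of 4 to 10 CKO libraries, no library stood apart in the summed level by Dixon's test.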

How the results depend on the processing

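No alternative moved the summed ratio of the 34 genes in brain ECs below 1. It was 1.38 with TMM scaling, 1.46 in nuclei with at least 1000 UMIs, 1.88 with nuclei weighted equally and 7.07 in nuclei with at most 1 pericyte marker UMI. Alternatives chosen after seeing the data gave 1.41 without Odc1, 1.80 without Ncl and 1.65 without both, and 3.95, 2.34 and 1.43 in nuclei with under 500, 500 to under 1000 and at least 2500 UMIs. With nuclei weighted equally, 19 of the 34 single-gene ratios moved up. Among them were Noc2l (14.7), Nop56 (9.34), Gnl3 (4.78) and Myc (2.22). The count of genes at least 1.5-fold higher was then 28 of 32 (40.7% of all genes higher, 11.2% lower). It was 2 of 2 with at most 1 pericyte marker UMI (29.8% of all genes higher, 31.6% lower). With a minimum of 200 UMIs it was 9 of 17 (16.1% of all genes higher). At least 2-fold higher were 12 of 32 genes (9.45% of all genes). In non-cycling ECs the ratio was 3.18, 2.16 and 1.31 in the same depth bins, 1.33 without Odc1, 1.35 in thinned nuclei called before thinning, and 1.48, 1.48 and 1.92 when cycling meant 2 UMIs of Mki67 or Top2a, 3 UMIs of the S and G2/M lists or any UMI of these lists. In cycling ECs these definitions gave 1.31, 1.49 and 1.49. The ratio of cycling over non-cycling was 0.884 with the first and 0.776 with the last definition, both with an interval below 1, and the share of the difference from the level in non-cycling nuclei fell to 14.9% and 5.52% with the list definitions. In the retina 0 tests of genotype passed under each alternative run. Of 33 genes, scaling to total UMIs made 14 higher and 0 lower in immune cells (all genes 35.2% and 4.86%), 4 lower in RGC (22.8%), 4 higher and 6 lower in GABA_AC (26.1% and 31.6%) and 15 lower in RBC (32.5%). DESeq2 gave 1 lower in immune cells (12.1%), 19 lower in rods (57.3%), 7 higher in GABA_AC (30.1%) and 12 lower in RBC (32.3%). Without the control library 1 gene was lower in immune cells (13.3%) and 6 were higher in GABA_AC (30.2%), and without CKO replicates 4 and 5 there were 3 higher in immune cells (16.0%). The cause of these differences was not tested. No paired analysis was possible because the labels give the control and brain libraries no replicate numbers. Depth limits Rrp9 and Rrp12 in ECs, pericytes and microglia, and rare genes in the retina.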
